A study of Mus musculus with 18 samples.

Results

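The genes described here build and load MHC class I molecules, and they were followed across regulatory T cells (Treg) from 6 groups of mice. Treg are CD4+ T cells that carry the transcription factor Foxp3 and hold other immune cells in check. The 10 members, given as a list of symbols, were matched to the Ensembl identifiers of the deposited table: H2-K1, H2-D1, H2-Q4, H2-Q7, H2-T22, H2-T23, B2m, Tap1, Psmb8 and Nlrc5. All 10 were found among 35275 identifiers, and all 10 were among the 12223 genes that reached 1 FPKM in at least 3 libraries and were tested. FPKM scales a gene's fragment count to its length and to the library's total, and so is a level per length.

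Male mice of 5 lines, aged 6-8 weeks, were labelled as carrying floxed alleles of Dyrk1, of HDAC1, of HDAC2, of Mef2c or of Mef2d, together with Foxp3-YFP-cre, which makes cre recombinase and a yellow fluorescent protein in cells that express Foxp3. Wild type here means Foxp3-YFP-cre without a floxed allele, so every group carried the cre and the fluorescent protein. CD4+ cells were enriched on a column and the YFP-positive cells were sorted. Each group had 3 libraries, called independent biological replicates in the series text, and each of the 5 deletions was compared with the same 3 wild type libraries. The 5 comparisons therefore share their wild type values and are not independent of each other.

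MHC class I molecules sit on nearly every nucleated cell and show peptides from inside the cell to CD8 T cells and natural killer cells. A heavy chain, encoded by an H2 gene, pairs with beta-2 microglobulin (B2m). Proteasomes cut the peptides, the TAP transporter moves them into the endoplasmic reticulum, and a loading complex places them on the heavy chain. Nlrc5 is the transcriptional coactivator of this gene set, acting through a conserved promoter module with X and Y boxes, and interferons raise the whole pathway.

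The start regions of the members were searched for letters of that module. RefSeq (GRCm38.p6) gave the 250 bases before the start for 9 of the 10 members, and Nlrc5 was not matched. Those of 5 genes are shown because they belong to H2-Q7, H2-T22 and H2-T23, the heavy chains that changed, and to H2-K1 and B2m, abundant members that did not pass the test in any deletion. All are written 5' to 3' on the gene's strand. Capitals mark matches on either strand to 4 sets of letters: CCAAT, the core of the Y box; TGACG, the core of the X2 box; GGGGA and CCC with 2 letters between, like a kappa-B site; and GAAA repeated with 2 letters between, like an interferon response element.
H2-Q7 chr17:35438905-35439154 (plus strand): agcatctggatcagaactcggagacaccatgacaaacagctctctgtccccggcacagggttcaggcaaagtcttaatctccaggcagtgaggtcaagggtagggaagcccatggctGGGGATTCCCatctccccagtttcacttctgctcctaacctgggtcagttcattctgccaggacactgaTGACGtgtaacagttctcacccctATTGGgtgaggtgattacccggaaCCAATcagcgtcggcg
H2-T22 chr17:36042743-36042992 (minus strand): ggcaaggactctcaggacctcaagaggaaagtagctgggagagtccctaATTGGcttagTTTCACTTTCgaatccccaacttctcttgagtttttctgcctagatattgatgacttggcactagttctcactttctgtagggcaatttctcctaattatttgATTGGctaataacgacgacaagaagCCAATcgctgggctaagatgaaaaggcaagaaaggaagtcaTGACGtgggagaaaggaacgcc
H2-T23 chr17:36032702-36032951 (minus strand): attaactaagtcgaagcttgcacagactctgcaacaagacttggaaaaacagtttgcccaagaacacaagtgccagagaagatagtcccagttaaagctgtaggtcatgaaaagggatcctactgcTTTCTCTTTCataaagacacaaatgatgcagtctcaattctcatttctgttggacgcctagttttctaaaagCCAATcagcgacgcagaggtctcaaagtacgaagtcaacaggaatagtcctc
H2-K1 chr17:34000348-34000597 (minus strand): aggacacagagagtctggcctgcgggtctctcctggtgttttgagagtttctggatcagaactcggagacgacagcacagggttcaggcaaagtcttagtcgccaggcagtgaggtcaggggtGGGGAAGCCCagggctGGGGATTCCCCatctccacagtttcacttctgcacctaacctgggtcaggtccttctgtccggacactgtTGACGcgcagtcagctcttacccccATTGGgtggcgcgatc
B2m chr2:122147437-122147686 (plus strand): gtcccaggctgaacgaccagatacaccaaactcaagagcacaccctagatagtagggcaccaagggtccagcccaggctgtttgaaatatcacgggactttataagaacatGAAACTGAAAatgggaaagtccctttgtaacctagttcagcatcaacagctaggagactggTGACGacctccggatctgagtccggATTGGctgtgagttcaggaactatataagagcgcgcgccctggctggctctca
CCAAT was found in 8 of the 9 member windows and in 33.8% of 32851 RefSeq windows of this length. TGACG was found in 7 of 9, against 17.8% of all windows. The kappa-B-like letters were in the windows of H2-K1, H2-D1 and H2-Q7, against 1.41% of all windows. The interferon-response-like letters were in those of B2m, H2-T22 and H2-T23, against 2.98% of all windows. Only exact letters counted. The windows of H2-K1, H2-D1, H2-Q4 and H2-Q7 hold tttcacttct, which is close to these letters but was not a match. A window without a match may therefore still hold such an element. CTA and TAG with 4 letters between, like a MEF2 site, was in 0 of 9 and in 3.2% of all windows. Matches on both strands and overlapping matches were counted, and a match describes letters only.

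Reads recovered from the steps of the FPKM values came to between 15920000 and 24090000 per library, and the members had between 2699 (Psmb8) and 125038 (H2-K1) reads in a library. The labelled gene was lower only in the HDAC1-labelled libraries, where Hdac1 averaged 32.0 ± 4.34 FPKM, against 119 ± 3.05 FPKM in wild type (SD, n = 3 each). Hdac2 averaged 27.9 ± 0.937 FPKM in HDAC2-labelled Treg and 28.3 ± 0.519 FPKM in wild type, and Mef2d averaged 53.4 ± 0.561 FPKM in Mef2d-labelled Treg and 41.7 ± 4.59 FPKM in wild type. Dyrk1a and Dyrk1b were higher in the Dyrk1-labelled libraries (adjusted p = 0.0352 and 0.000679), and Mef2c was low in every group, with means from 0.476 to 3.12 FPKM. The deleted exons are not given in the sources used here, and a gene's total level does not show a lost exon. The groups are therefore called by their labels, and a deletion here means the group with that label. Each label was carried by its own line of mice. The label and other differences between lines cannot be told apart. The 6 Treg markers averaged 7.062 to 7.365 on the log2(FPKM + 1) scale over all 18 libraries, with Foxp3 between 82.5 and 118 FPKM. Of 8 B cell markers none was at 0 in any library, and their summed level reached at most 396 FPKM in the Dyrk1 group, 87.76 in HDAC1, 61.36 in HDAC2, 126.3 in Mef2c and 178.5 FPKM in Mef2d, against 29.16 to 48.21 FPKM in wild type. The 3 libraries richest in them were replicate 1 of Dyrk1 (396 FPKM), of Mef2d (178.5 FPKM) and of Mef2c (126.3 FPKM). Myeloid markers summed to 498.9, 321.1 and 241.5 FPKM in these 3, to 110 to 333.2 FPKM in HDAC1 and to 16.1 to 201 FPKM in wild type. Dyrk1 replicate 1 also held 119.6 FPKM of CD8 T and natural killer cell markers. Leaving out the 3 libraries therefore removes more than B cell marker RNA. Erythroid markers summed to 6.553 to 55.54 FPKM in the Dyrk1, Mef2c and Mef2d groups and 43.5 to 303.6 FPKM in the HDAC groups, against 25.5 to 388 FPKM in wild type. Results that changed when the 3 libraries with the most B cell marker RNA were left out are named as such. In bulk libraries fewer cells of a type and less RNA per cell cannot be told apart.

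The classical heavy chains and B2m were the most abundant members, and none of them passed the test in any deletion. In wild type Treg, B2m averaged 2622 ± 185 FPKM, H2-K1 2505 ± 178 FPKM and H2-D1 1402 ± 101 FPKM (SD, n = 3). The other heavy chains were lower, with H2-Q7 at 228 ± 26.9, H2-T23 at 198 ± 19.8, H2-Q4 at 188 ± 21.7 and H2-T22 at 97.3 ± 6.91 FPKM. Tap1 averaged 115 ± 8.2, Psmb8 81.5 ± 5.80 and Nlrc5 54.3 ± 6.02 FPKM. The members that passed the test were nonclassical heavy chains, the transporter subunit Tap1 and the coactivator Nlrc5, and each was higher in the deletion than in wild type.

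**Figure D1:**
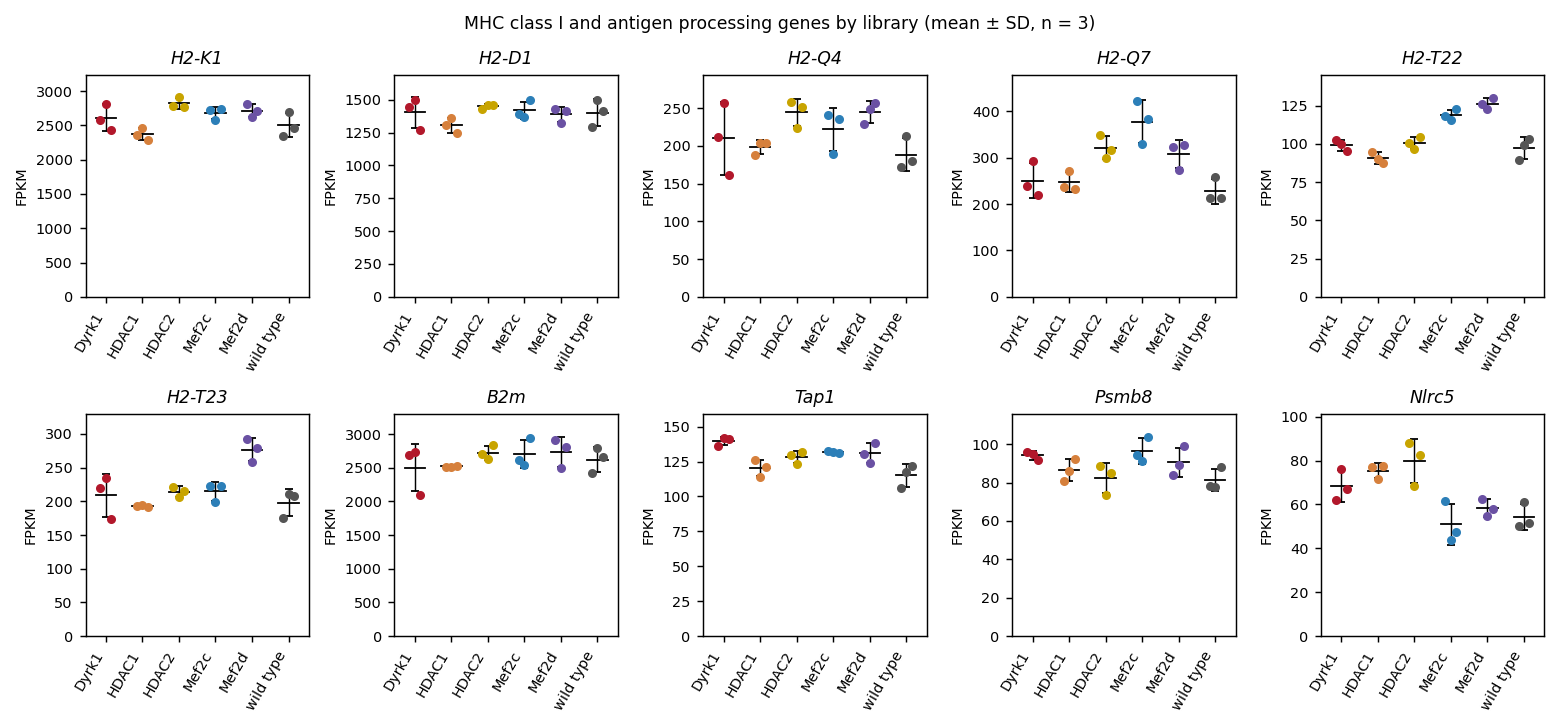
Level of each member (y axis, FPKM, from 0) in the 3 libraries of each group (x axis); points are libraries, the bar is the group mean and the whiskers are 1 SD. H2-Q7 stood highest in Mef2c-labelled libraries, H2-T23 in Mef2d-labelled libraries and Nlrc5 in HDAC1- and HDAC2-labelled libraries, while H2-K1, H2-D1 and B2m overlapped between most groups.

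Differences were tested with limma on log2(FPKM + 1), with p-values adjusted by Benjamini-Hochberg over all 12223 genes and calls made at adjusted p under 0.05. In Dyrk1-labelled Treg 1 of 10 members was higher than in wild type and 0 were lower, where 17.3% of all genes tested were called, 11.1% higher and 6.19% lower. In HDAC1-labelled Treg 1 member was higher and 0 lower, against 12.5% of all genes (10.2% higher, 2.32% lower). In HDAC2-labelled Treg 2 were higher and 0 lower, against 25.6% (16.1% higher, 9.41% lower). In Mef2c-labelled Treg 3 were higher and 0 lower, against 19% (12.9% higher, 6.06% lower). In Mef2d-labelled Treg 4 were higher and 0 lower, against 21.9% (13.9% higher, 7.95% lower). At an unadjusted p under 0.05 in the same limma fit, 3, 1, 5, 4 and 5 members were higher and 0 lower in each, against 19.5%, 21%, 24.5%, 21.4% and 22% of all genes tested that were higher at that threshold. At the adjusted threshold the members' shares for Dyrk1, HDAC1 and HDAC2 lay near those of all genes; for Mef2c and Mef2d they were larger, a difference that was not tested. When the 3 libraries with the most B cell marker RNA were left out, 2, 1, 2, 2 and 2 members were called for Dyrk1, HDAC1, HDAC2, Mef2c and Mef2d. For Mef2c and Mef2d the calls over all genes fell in that fit too, as given in the last section. Shares of all genes are not given for the other comparisons of that fit, so its counts are no result about the members. Of all genes called, 64.2%, 81.5%, 63.2%, 68.1% and 63.7% were higher for Dyrk1, HDAC1, HDAC2, Mef2c and Mef2d, and this split depended on the scaling: it was 52.1%, 57.1%, 46.9%, 50.9% and 49.2% with median-of-ratios scaling and 46.1%, 44.7%, 45%, 48.7% and 47.7% once length and GC trends were removed. The median log2 difference over the members was 0.10, 0.01, 0.14, 0.16 and 0.17 for Dyrk1, HDAC1, HDAC2, Mef2c and Mef2d, against 0.02, 0.05, 0.05, 0.04 and 0.04 over all genes tested. The number of members with a positive difference was 9, 5, 10, 9 and 9 of 10. Over all genes tested it was 6505, 7194, 7106, 6957 and 6884 of 12223 in the same order. Members whose 3 deletion libraries did not overlap the 3 wild type libraries numbered 3, 1, 5, 4 and 5 of 10 in the same order, against 29.8%, 35.7%, 46.6%, 36.3% and 42.3% of all genes tested. An F test over all 6 groups called 5 members (H2-Q7, H2-T22, H2-T23, Tap1 and Nlrc5), against 38.6% of all genes tested. It called 3 members when those libraries were left out, where the share of all genes called is not given.

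**Figure D2:**
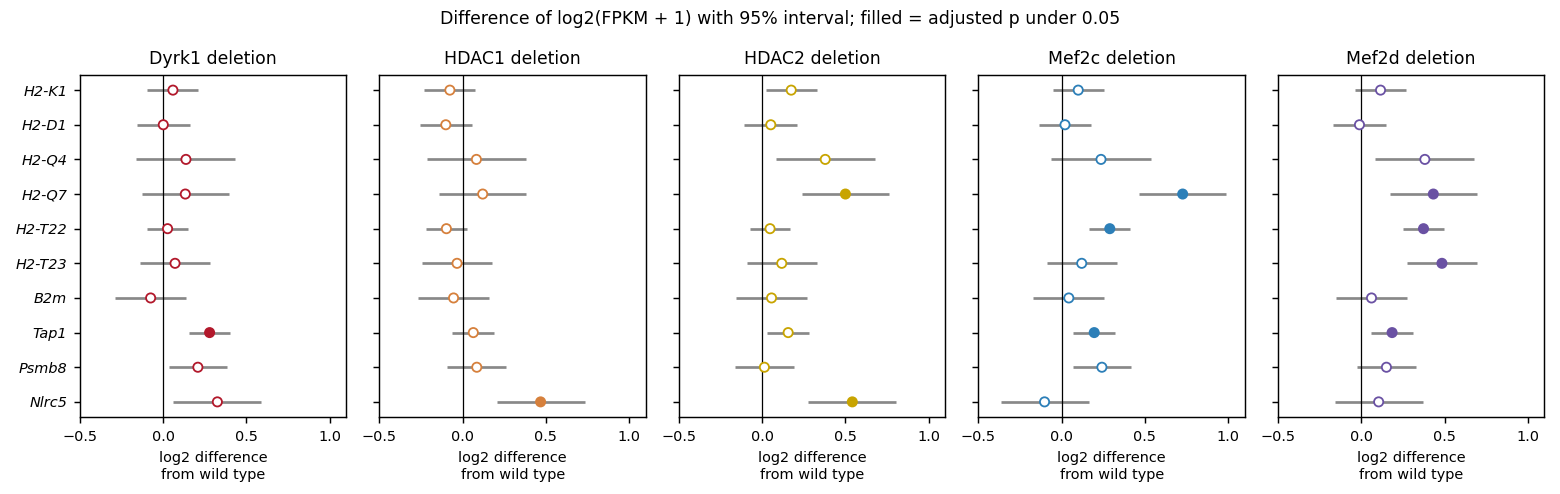
Log2 difference from wild type of log2(FPKM + 1) (x axis) for each member (rows) in each deletion (panels), with 95% intervals; filled points had an adjusted p under 0.05. Filled points lie to the right of 0 in every panel, from 1 in the Dyrk1 and HDAC1 panels to 4 in the Mef2d panel.

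H2-K1 and H2-D1 encode the classical heavy chains, which present peptides to CD8 T cells. H2-K1 lay between 2293 and 2915 FPKM over the 18 libraries and H2-D1 between 1244 and 1500 FPKM, and neither passed the test in any of the 5 deletions. For H2-K1 the largest difference was in HDAC2-labelled Treg, with 2784, 2915 and 2769 FPKM against 2350, 2700 and 2466 FPKM in wild type. The libraries of the groups did not overlap, and the log2 difference was 0.17 (95% interval 0.02 to 0.33, adjusted p = 0.0856). H2-K1 passed the test in this comparison once length and GC trends were removed (log2 difference 0.19, adjusted p = 0.0459) and without wild type replicate 2 (0.23, adjusted p = 0.0393). For H2-D1 the 5 log2 differences lay between -0.10 (HDAC1) and 0.05 (HDAC2), and the intervals reached from -0.26 to 0.21. B2m, the light chain, lay between 2094 FPKM, in a Dyrk1-labelled library, and 2941 FPKM, in a Mef2c-labelled library. Its 5 log2 differences lay between -0.08 (Dyrk1) and 0.06 (Mef2d), and the intervals reached from -0.29 to 0.28.

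H2-Q7 encodes a Qa-2 heavy chain, a nonclassical molecule with a lipid anchor. It had 422, 329 and 382 FPKM in Mef2c-labelled Treg, against 212, 259 and 212 FPKM in wild type. It had 350, 300 and 315 FPKM in HDAC2-labelled and 323, 273 and 327 FPKM in Mef2d-labelled Treg. All 9 of these libraries lay above the highest wild type library. The log2 difference was 0.73 ± 0.122 for Mef2c (SE, adjusted p = 0.00102), 0.50 ± 0.122 for HDAC2 (adjusted p = 0.00978) and 0.43 ± 0.122 for Mef2d (adjusted p = 0.0223). The Mef2c call held under every one of 26 alternatives tried, some of which alter the shared spread and not the difference itself. The HDAC2 value missed the threshold when wild type replicate 3 was left out (log2 difference 0.45, adjusted p = 0.052). The Mef2d value missed it when the 3 libraries with the most B cell marker RNA were left out (0.40, adjusted p = 0.0862), and when replicate 1 or 3 of either group was (adjusted p from 0.0684 to 0.0998). In Dyrk1-labelled Treg H2-Q7 had 240, 292 and 220 FPKM and in HDAC1-labelled Treg 238, 272 and 232 FPKM, values that overlapped wild type (log2 differences 0.13 and 0.12, adjusted p = 0.483 and 0.549). H2-Q7 was lower in Dyrk1- than in Mef2c-labelled Treg (log2 difference -0.59, adjusted p = 0.00286) and lower in HDAC1- than in Mef2c-labelled Treg (-0.61, adjusted p = 0.00472). Among HDAC2, Mef2c and Mef2d no pair passed the test, with intervals for the difference of -0.49 to 0.03 for HDAC2 minus Mef2c, -0.19 to 0.33 for HDAC2 minus Mef2d and 0.03 to 0.55 for Mef2c minus Mef2d. In HDAC2-labelled libraries 5 of 6 plasma cell markers were higher than in wild type, with a summed level of 666.3 to 2098 FPKM against 197.6 to 498.4 FPKM, and none was at 0 in any library. Of 6 CD8 T and natural killer cell markers, none at 0, 3 were higher there too, with a summed level of 42.96 to 70.01 FPKM against 31.35 to 47.41 FPKM in wild type. In HDAC1-labelled libraries the plasma cell markers summed to 523.3 to 1391 FPKM (median log2 difference 0.79). Of the 6, 1 was called higher, against 10.2% of all genes tested. At an unadjusted p under 0.05 in the limma fit 5 of 6 were higher, against 21% of all genes tested. The part of these markers in the HDAC1 and HDAC2 results was not tested.

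H2-Q7 has near-identical neighbours, and how reads that match several of these copies were counted is not given in the sources used here. H2-Q6, one of these, averaged 371 ± 55.5, 354 ± 32.5, 444 ± 26, 497 ± 62.8 and 383 ± 53.4 FPKM in Dyrk1-, HDAC1-, HDAC2-, Mef2c- and Mef2d-labelled Treg, against 270 ± 28.1 FPKM in wild type (SD, n = 3 each). It was higher than wild type for Mef2c (log2 difference 0.87, adjusted p = 0.000326), HDAC2 (0.72, adjusted p = 0.00289), Mef2d (0.50, adjusted p = 0.0146) and Dyrk1 (0.45, adjusted p = 0.0272), and did not pass for HDAC1 (0.39, adjusted p = 0.0585). For Dyrk1 and Mef2d, H2-Q6 missed the threshold when replicate 1 or 3 of wild type was left out (adjusted p from 0.0529 to 0.0868). For HDAC1, H2-Q6 passed in 5 of 26 alternatives. Summed into 1 value, H2-Q6 and H2-Q7 were higher than in wild type for Mef2c (log2 difference 0.81), HDAC2 (0.62) and Mef2d (0.47), the 3 deletions in which H2-Q7 by itself was called. H2-Q8 and H2-Q9 were not matched and are not analysed here.

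H2-Q4, another heavy chain of the Q region, did not pass in any deletion. Its libraries lay above wild type without overlap in HDAC2-labelled Treg, with 258, 224 and 252 FPKM, and in Mef2d-labelled Treg, with 229, 249 and 257 FPKM, against 172, 213 and 180 FPKM in wild type. The log2 differences were 0.38 for both (adjusted p = 0.0586 for HDAC2 and 0.0621 for Mef2d), and both passed once length and GC trends were removed. Over all 26 alternatives H2-Q4 passed in 6 for HDAC2 and in 5 for Mef2d. The spread of H2-Q4 was widest in Dyrk1-labelled Treg, from 161 to 257 FPKM.

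H2-T23 encodes Qa-1, which presents leader peptides of other class I chains to the CD94-NKG2 receptors of natural killer and T cells. It had 293, 259 and 279 FPKM in Mef2d-labelled Treg, against 175, 211 and 208 FPKM in wild type, a log2 difference of 0.48 ± 0.0983 (SE, adjusted p = 0.00421). All 3 Mef2d-labelled libraries lay above each of the other 15 libraries, of which the highest had 234 FPKM. Qa-1 RNA was also lower in Dyrk1- (log2 difference -0.41, adjusted p = 0.00912), HDAC1- (-0.52, adjusted p = 0.00387) and HDAC2- (-0.37, adjusted p = 0.0479) than in Mef2d-labelled Treg. Mef2c- against Mef2d-labelled Treg gave a difference of similar size that did not pass (-0.36, 95% interval -0.57 to -0.15, adjusted p = 0.0648). The other 4 deletions differed from wild type by log2 -0.03 to 0.12, and none passed.

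H2-T22 encodes a heavy chain that binds B2m without peptide and is a ligand for some gamma-delta T cells. It was higher in both MEF2-labelled groups. It had 118, 116 and 122 FPKM in Mef2c-labelled and 126, 123 and 130 FPKM in Mef2d-labelled Treg, against 89.6, 99.3 and 103 FPKM in wild type. None of these 6 libraries overlapped the other 12. The log2 difference was 0.29 ± 0.0574 for Mef2c (SE, adjusted p = 0.00341) and 0.37 ± 0.0574 for Mef2d (adjusted p = 0.000709). In HDAC1-labelled Treg H2-T22 had 94.9, 89.998 and 87.4 FPKM (log2 difference from wild type -0.10, adjusted p = 0.275), and it was lower there than in Mef2c- (-0.39, adjusted p = 0.000419) and Mef2d-labelled Treg (-0.47, adjusted p = 7.61e-05). It was likewise lower in Dyrk1- and HDAC2-labelled Treg than in each MEF2 deletion (adjusted p from 0.000728 to 0.0175). Mef2c- minus Mef2d-labelled Treg gave -0.09 (95% interval -0.21 to 0.04, adjusted p = 0.642). The calls of H2-T22 for Mef2c and Mef2d, and that of H2-T23 for Mef2d, held in each of the 26 alternatives, among them the one that leaves out the libraries with the most B cell marker RNA.

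The near copy of H2-T22, H2-T10, was also higher in Mef2c-labelled Treg. H2-T10, also a ligand for gamma-delta T cells, had 107, 94.4 and 106 FPKM in Mef2c-labelled Treg, against 19.9, 28.9 and 22.2 FPKM in wild type. The log2 difference was 2.08 ± 0.241 (SE, adjusted p = 4.06e-05), about 4.24-fold on the log2(FPKM + 1) scale. The other deletions had 13.9 to 54.1 FPKM, the highest value in a Mef2d-labelled library, and H2-T10 was higher in Mef2c-labelled Treg than in each of them (adjusted p = 2.11e-05 against Dyrk1, 4.07e-05 against HDAC1, 0.000112 against HDAC2 and 0.00273 against Mef2d). The sum of H2-T22 and H2-T10 was higher than in wild type for Mef2c (log2 difference 0.87, adjusted p = 7.13e-06) and for Mef2d (0.44, adjusted p = 0.00293). For Mef2c H2-T10 rose more than H2-T22, so this sum is no separate check of the H2-T22 call. How reads that match both copies were counted is not given in the sources used here. Whether reads of H2-T10 were counted to H2-T22 was not tested.

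Of 18 other class I heavy chain and class I-like genes listed, 11 passed the filter. In Dyrk1-labelled Treg 1 of the 11 was higher, in HDAC1-labelled Treg 0 (1 at an unadjusted p under 0.05), in HDAC2-labelled Treg 2 were higher and 1 lower, in Mef2c-labelled Treg 4 were higher and 1 lower, and in Mef2d-labelled Treg 2 were higher and 1 lower. Over all genes tested 17.3%, 12.5%, 25.6%, 19% and 21.9% were called either way in that order. The median log2 difference of the 11 was -0.03, 0.05, 0.17, 0.27 and 0.23. The 4 genes higher in Mef2c-labelled Treg were H2-T10, H2-T3, H2-Q6 and H2-T24. H2-T3, which encodes the thymus leukemia antigen known from gut epithelium, had 1.84, 1.87 and 1.41 FPKM there, against 0.0839, 0.0652 and 0.0233 FPKM in wild type. These levels are low, and H2-T3 passed the filter through this group alone, since each of the other 15 libraries was at 0.602 FPKM or less, so its call is no test of a difference. Without H2-T3, 3 of 10 genes were higher and 1 lower in Mef2c-labelled Treg, with a median log2 difference of 0.24. H2-T24 had 47.8, 54.1 and 48.7 FPKM in Mef2c-labelled Treg, against 27.1, 35.6 and 35.2 FPKM in wild type (0.61, adjusted p = 0.00293), and did not differ past the threshold from Mef2d-labelled Treg (0.29, adjusted p = 0.314). H2-Q5 was higher in HDAC2-labelled Treg (180 ± 12.2 against 115 ± 16.9 FPKM in wild type, SD, n = 3 each, log2 difference 0.65, adjusted p = 0.0174), which missed the threshold when wild type replicate 1 or 3 was left out (adjusted p = 0.0589 and 0.0768). H2-M3, which presents N-formylated peptides, was higher in Mef2d-labelled Treg (46.0 ± 3.30 against 33.5 ± 1.46 FPKM in wild type, 0.45, adjusted p = 0.0102), which missed the threshold when Mef2d replicate 1 was left out (adjusted p = 0.0515). H2-M2 was the gene that was lower, with log2 differences of -1.09 for HDAC2 (adjusted p = 0.00238), -0.96 for Mef2d (adjusted p = 0.00239) and -0.61 for Mef2c (adjusted p = 0.0276, named after its value was seen), at levels of 0.531 to 3.71 FPKM in all libraries.

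**Figure D3:**
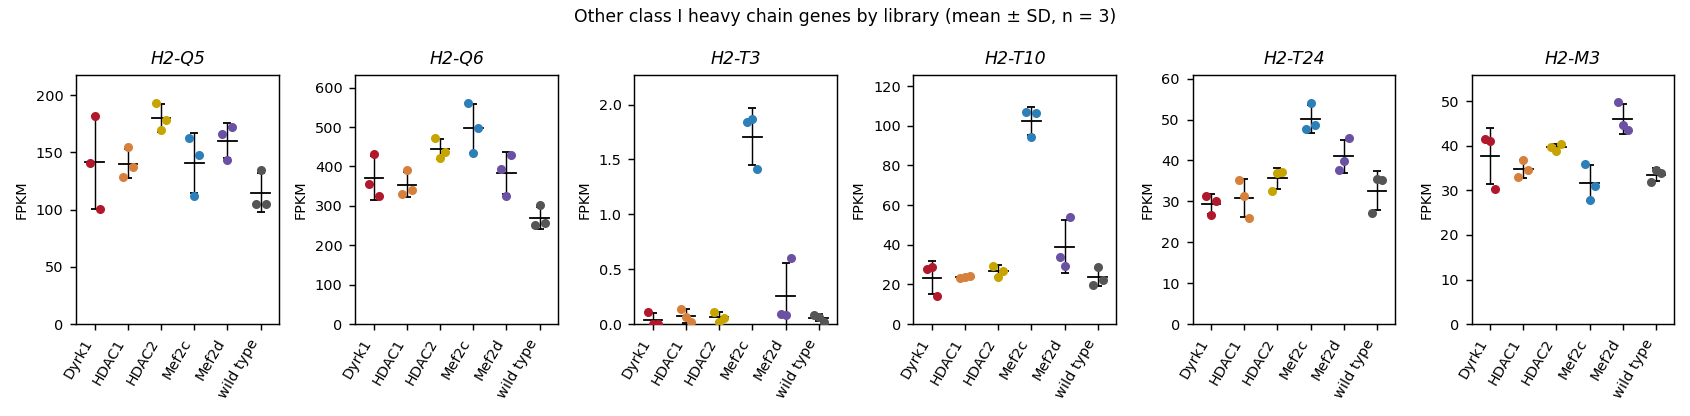
Level (y axis, FPKM, from 0) of 6 class I heavy chain genes that are not members, by library and group, with the group mean and 1 SD. H2-T10 and H2-T3 stand apart in the 3 Mef2c-labelled libraries, H2-T10 at 94.4 to 107 FPKM and H2-T3 at 1.41 to 1.87 FPKM.

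The H2 genes lie together on chromosome 17. In mm10, H2-K1 (ENSMUSG00000061232) spans chr17:33996017-34000347, Tap1 (ENSMUSG00000037321) chr17:34187553-34197225 and Psmb8 (ENSMUSG00000024338) chr17:34197721-34201454. H2-D1 (ENSMUSG00000073411) spans chr17:35262730-35267499, H2-Q4 (ENSMUSG00000035929) chr17:35379617-35385290 and H2-Q7 (ENSMUSG00000060550) chr17:35439155-35443773. H2-T23 (ENSMUSG00000067212) spans chr17:36029773-36032855 and H2-T22 (ENSMUSG00000056116) chr17:36037128-36042747. B2m (ENSMUSG00000060802) lies apart at chr2:122147686-122153083, as does Nlrc5 (ENSMUSG00000074151) at chr8:94434356-94527272. All 10 are protein-coding in GENCODE M21. The span from the first to the last H2 gene, chr17:33974659-37483552, held 101 tested genes that were not members. Of these, 12.9%, 5.94%, 23.8%, 22.8% and 16.8% were called in Dyrk1-, HDAC1-, HDAC2-, Mef2c- and Mef2d-labelled Treg, against 17.3%, 12.5%, 25.6%, 19% and 21.9% of all genes tested.

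Among the genes of peptide supply, Tap1 and Tapbpl were higher in several deletions. Tap1 encodes a subunit of the TAP peptide transporter. It had 136, 142 and 141 FPKM in Dyrk1-labelled Treg, against 106, 118 and 122 FPKM in wild type, with no overlap (log2 difference 0.28 ± 0.0586, SE, adjusted p = 0.00697). The fit of those 6 libraries alone gave an adjusted p of 0.134. Tap1 had 133, 132 and 131 FPKM in Mef2c-labelled and 131, 124 and 139 FPKM in Mef2d-labelled Treg, all above wild type (log2 differences 0.20 and 0.19, adjusted p = 0.0315 and 0.0362). Each of these 2 calls was lost in 8 of 26 alternatives, among them another library scaling (adjusted p = 0.0982 and 0.1) and the fit that left out the libraries with the most B cell marker RNA (adjusted p = 0.119 and 0.111). Tap1 was higher in Dyrk1- than in HDAC1-labelled Treg (0.22, adjusted p = 0.0308). Its partner Tap2 averaged 63.2 ± 1.13 FPKM in HDAC2-labelled and 62.1 ± 1.58 FPKM in Mef2c-labelled Treg, against 55.5 ± 2.85 FPKM in wild type (SD, n = 3 each, log2 differences 0.18 and 0.16, adjusted p = 0.0177 and 0.0395), and both calls were lost under the other scaling.

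Of 8 peptide loading genes outside the members, 1 was higher and 1 lower in Dyrk1-labelled Treg, 1 higher in HDAC1-labelled Treg, 2 higher in HDAC2- and in Mef2c-labelled Treg, and 1 higher and 2 lower in Mef2d-labelled Treg. Over all genes tested 17.3%, 12.5%, 25.6%, 19% and 21.9% were called either way in that order. The median log2 difference of the 8 was 0.02, 0.01, -0.06, -0.04 and -0.11. Tapbpl, the peptide editor TAPBPR, was higher in all 5 deletions. It had 45.9, 48.0 and 44.998 FPKM in Dyrk1-labelled Treg, against 37.8, 36.0 and 36.6 FPKM in wild type, and its log2 differences were 0.32, 0.23, 0.27, 0.31 and 0.16 for Dyrk1, HDAC1, HDAC2, Mef2c and Mef2d (adjusted p from 0.000525 to 0.0312). The Mef2d call of Tapbpl was lost in several alternatives, among them the other scaling, and the Dyrk1 call in the fit of 6 libraries. Of the chaperone genes, Pdia3 was lower for Dyrk1 (-0.27, adjusted p = 0.0164) and Mef2d (-0.21, adjusted p = 0.0434), and Calr, which encodes calreticulin, was lower for Mef2d (-0.23, adjusted p = 0.0349). Each of these 3 differences missed the threshold when wild type replicate 3 was left out (adjusted p = 0.0702, 0.189 and 0.166). Over all 26 alternatives the call was lost in 3 for Pdia3 in Dyrk1-labelled Treg, in 14 for Pdia3 in Mef2d-labelled Treg and in 8 for Calr in Mef2d-labelled Treg.

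Psmb8 encodes the immunoproteasome subunit that takes the place of Psmb5, the chymotrypsin-like subunit of the constitutive proteasome. It lay between 73.3 and 104 FPKM in all libraries and did not pass in any deletion. In Mef2c-labelled Treg it had 94.6, 91.0 and 104 FPKM and in Dyrk1-labelled Treg 95.7, 94.99 and 91.7 FPKM, all above 78.5, 77.8 and 88.1 FPKM in wild type (log2 differences 0.24 and 0.21, adjusted p = 0.054 and 0.0944). With the replicate number as a block Psmb8 passed for Mef2c (adjusted p = 0.0338). Of the 5 other immunoproteasome and activator genes 0 passed in any deletion, and 0 had an unadjusted p under 0.05 in the limma fit, with median log2 differences of -0.04, -0.02, -0.09, -0.05 and -0.03. Another 15 proteasome genes were lower in part. Only Psmb5, Psmb6 and Psmb7 among them are particular to the constitutive proteasome. The others encode subunits shared with the immunoproteasome, or the activator Psme3. Of the 15, 0, 0, 10, 2 and 5 were lower for Dyrk1, HDAC1, HDAC2, Mef2c and Mef2d and 0 were higher. Over all genes tested 6.19%, 2.32%, 9.41%, 6.06% and 7.95% were lower. At an unadjusted p under 0.05 in the limma fit, 1 of the 15 was lower for Dyrk1 and 8 for HDAC1. The share of all genes lower at that unadjusted threshold is not given, and the shares above are for the adjusted one. Their median log2 differences were -0.14, -0.22, -0.28, -0.22 and -0.25. Psmb5 had 56.5, 62.8 and 78.8 FPKM in Mef2c-labelled Treg, against 104, 104 and 118 FPKM in wild type (log2 difference -0.72, adjusted p = 0.000223). In HDAC2-labelled Treg Psmb7 fell by 0.43 (adjusted p = 0.00433) and Psmb5 by 0.38 on the log2 scale (adjusted p = 0.0140), and Psmb5 missed the threshold when HDAC2 replicate 2 or wild type replicate 3 was left out (adjusted p = 0.0549 and 0.0745). In Mef2d-labelled Treg Psmb7 fell by 0.33 (adjusted p = 0.0157), which missed the threshold when the libraries with the most B cell marker RNA were left out (adjusted p = 0.0663).

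The ratio of Psmb8 to Psmb5 was 1.48 ± 0.179 in Mef2c-labelled Treg, 1.02 ± 0.0598 in Mef2d-, 0.991 ± 0.0334 in HDAC2-, 0.949 ± 0.0378 in HDAC1- and 0.977 ± 0.0725 in Dyrk1-labelled Treg, against 0.750 ± 0.00436 in wild type (SD, n = 3 each). All 15 deletion libraries, from 0.895 to 1.67, lay above the 3 wild type libraries, from 0.747 to 0.755. Each comparison gave p = 0.1 in a two-sided exact permutation test, the smallest that 3 against 3 allows (0.125 adjusted by Benjamini-Hochberg over 15 ratio comparisons). The ratio of Psmb9 to Psmb6 was 0.787, 0.806, 0.845, 0.815 and 0.909 in Dyrk1-, HDAC1-, HDAC2-, Mef2c- and Mef2d-labelled Treg, against 0.637 in wild type, again with p = 0.1 each in the exact test. That of Psmb10 to Psmb7 was 1.19, 1.45, 1.61, 1.38 and 1.49, against 1.21 in wild type, with exact p = 0.6, 0.2, 0.1, 0.3 and 0.1 (adjusted 0.6, 0.231, 0.125, 0.321 and 0.125). The 15 comparisons share their wild type libraries, and a ratio shows unequal change of its parts only.

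**Figure D4:**
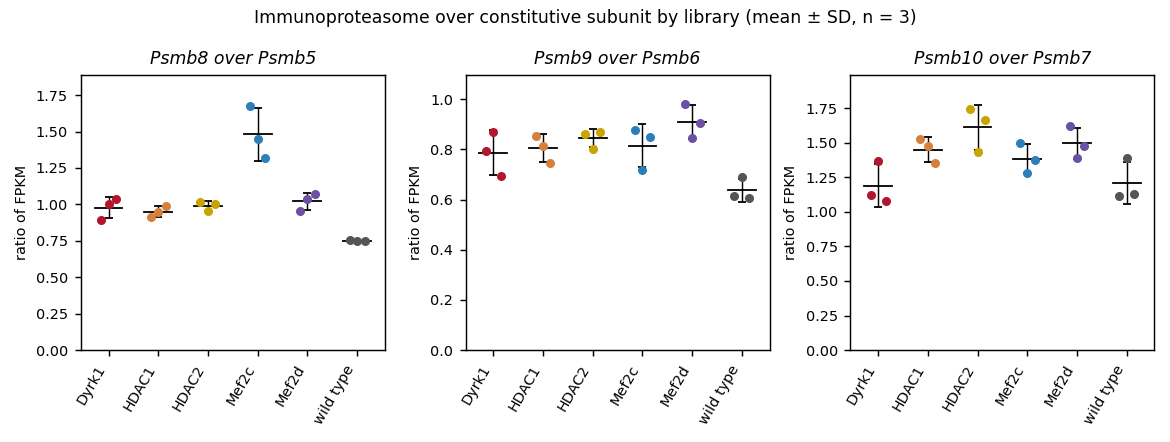
Ratio of FPKM of an immunoproteasome subunit to its constitutive counterpart (y axis, from 0) by library and group, with the group mean and 1 SD. For Psmb8 over Psmb5 the Mef2c-labelled libraries lie at 1.32 to 1.67 and the wild type libraries at 0.747 to 0.755.

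Nlrc5, the class I coactivator, was higher in the HDAC groups. It had 77.0, 71.5 and 77.5 FPKM in HDAC1-labelled and 88.0, 68.6 and 82.4 FPKM in HDAC2-labelled Treg, against 50.3, 61.3 and 51.5 FPKM in wild type. Both groups lay above wild type without overlap, by 0.47 ± 0.124 for HDAC1 (log2, SE, adjusted p = 0.0249) and 0.54 ± 0.124 for HDAC2 (adjusted p = 0.00721). The HDAC2 call held in all 26 alternatives, many of which leave the difference itself unchanged. The HDAC1 call was lost once length and GC trends were removed (log2 difference 0.33, adjusted p = 0.0872) and when replicate 1 or 3 of either group was left out (adjusted p from 0.0673 to 0.106). In Dyrk1-labelled Treg Nlrc5 had 61.8, 76.2 and 67.1 FPKM, also above wild type without overlap, but did not pass (0.33, adjusted p = 0.083). It passed there in 2 of 26 alternatives, among them the one without the libraries with the most B cell marker RNA (0.39, adjusted p = 0.0289). Dyrk1-labelled Treg did not differ past the threshold from HDAC1- (-0.14, adjusted p = 0.547) or HDAC2-labelled Treg (-0.22, adjusted p = 0.254). Nlrc5 had 61.5, 43.6 and 47.6 FPKM in Mef2c-labelled and 62.4, 54.5 and 58.1 FPKM in Mef2d-labelled Treg, both overlapping wild type (log2 differences -0.10 and 0.10, adjusted p = 0.601 and 0.580). Nlrc5 was higher in Dyrk1- (0.43, adjusted p = 0.0239), HDAC1- (0.57, adjusted p = 0.00768) and HDAC2-labelled (0.64, adjusted p = 0.00434) than in Mef2c-labelled Treg. Against Mef2d the differences of the 2 HDAC groups did not pass (0.36 and 0.44, adjusted p = 0.101 and 0.0641).

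Of 25 other regulators of class I genes, 8 were higher and 0 lower in Dyrk1-labelled Treg, 4 higher and 1 lower in HDAC1-, 8 higher and 2 lower in HDAC2-, 3 higher and 1 lower in Mef2c- and 7 higher and 1 lower in Mef2d-labelled Treg. Over all genes tested 11.1%, 10.2%, 16.1%, 12.9% and 13.9% were higher in that order, and 6.19%, 2.32%, 9.41%, 6.06% and 7.95% were lower. The median log2 difference of the list was 0.11, 0.06, 0.15, 0.09 and 0.11, where that of all genes was 0.02 to 0.05. Stat2, a transcription factor of type I interferon signalling, was higher in all 5 deletions. It had 26.6, 24.4 and 27.0 FPKM in HDAC2-labelled Treg, against 16.1, 22.1 and 19.1 FPKM in wild type, with no overlap. Its log2 differences were 0.36, 0.48, 0.43, 0.35 and 0.42 for Dyrk1, HDAC1, HDAC2, Mef2c and Mef2d (adjusted p from 0.0136 to 0.0441, the Dyrk1 and Mef2d values named after they were seen). The Mef2c call of Stat2 was lost in 16 of 26 alternatives. Rfx5, a subunit of the complex that binds the X box, had 11.2, 10.9 and 11.8 FPKM in Dyrk1-labelled Treg, against 6.997, 7.24 and 6.24 FPKM in wild type (0.65, adjusted p = 0.000109), and Nfya, a subunit of the factor that binds CCAAT, was also higher there (0.34, adjusted p = 0.00298). In the fit of the 6 Dyrk1 and wild type libraries alone, Nfya missed the threshold (adjusted p = 0.0949). Ezh2, the histone methyltransferase of a Polycomb complex, was lower for HDAC1 (-0.41, adjusted p = 0.0314), HDAC2 (-0.61, adjusted p = 0.00328), Mef2c (-0.49, adjusted p = 0.00918) and Mef2d (-0.50, adjusted p = 0.00857). The HDAC1 call was lost in 6 of 26 alternatives. In Dyrk1-labelled Treg Ezh2 had 47.4, 39.8 and 42.9 FPKM, against 34.8, 27.5 and 41.2 FPKM in wild type (0.34, adjusted p = 0.0572).

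**Figure D5:**
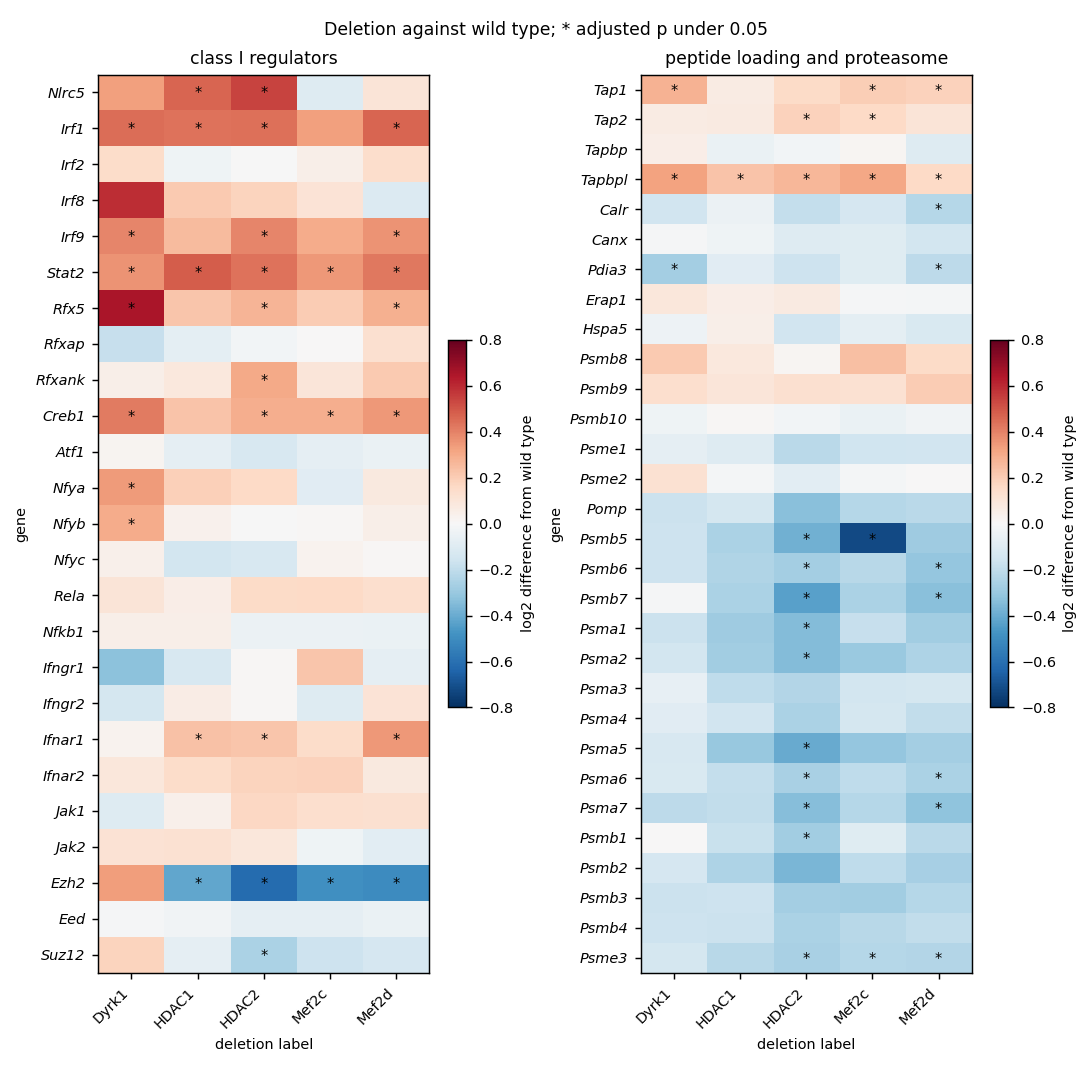
Log2 difference from wild type (colour, red higher and blue lower in the deletion) of regulators of class I genes (left) and of peptide loading and proteasome genes (right), rows, in each deletion, columns; a star marks an adjusted p under 0.05. Stat2 and Tapbpl carry a star in all 5 columns, and the proteasome rows from Psmb5 to Psme3 are blue in nearly every column.

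Between the deletions themselves, 15 of 100 member-by-pair differences passed (10 members, 10 pairs of deletion groups), against 9.57% over all genes tested. H2-T22 accounted for 6 of these calls, H2-T23 for 3, Nlrc5 for 3, H2-Q7 for 2 and Tap1 for 1. Dyrk1 against Mef2c gave 3 members (19.7% of all genes called), Dyrk1 against Mef2d 2 (17%), Dyrk1 against HDAC1 1 (9.5%) and Dyrk1 against HDAC2 0 (17.4%). HDAC1 against Mef2c gave 3 (9.76%), HDAC1 against Mef2d 2 (7.09%) and HDAC1 against HDAC2 0 (1.5%). HDAC2 gave 2 against Mef2c (6.45%) and 2 against Mef2d (4.3%), and Mef2c against Mef2d gave 0 (3.06%). At an unadjusted p under 0.05 in the limma fit, the pairs with 0 calls had 2 members for Dyrk1 against HDAC2 (31.3% of all genes tested), 3 for HDAC1 against HDAC2 (13.5%) and 2 for Mef2c against Mef2d (12.8%).

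Among the members themselves, levels moved together across libraries more often than apart. Over the 18 libraries 39 of 45 pairs of members had a positive Pearson correlation of log2(FPKM + 1), with a median of 0.466, and the median was 0.424 within groups. The closest pairs were H2-K1 with H2-D1 (r = 0.833) and H2-T22 with H2-T23 (r = 0.804), while H2-T22 and Nlrc5 gave the lowest value (r = -0.468). These points share libraries, scaling and groups, so the values describe the libraries only. Outside the members and lists, genes averaging at least 5 FPKM whose levels were most like the mean of the standardised members included Mir142hg (r = 0.889), Entr1 (0.876), Socs1 (0.869) and Ankra2 (0.863), over the same 18 libraries. The mean of the standardised members was lowest in wild type replicate 1, at -1.43 SD, and stood at -0.13 and -0.50 in the other wild type libraries.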

How the data were processed

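RNA of sorted Treg was sequenced as paired-end libraries. Per the submitters' processing notes reads were aligned to mm10 with STAR and counted with HTSeq; versions, strand setting and annotation are not given in the sources used here. The deposited values were read as FPKM, from their range and steps, and RPKM cannot be told apart from them. Reads per library were recovered from those steps (tolerance 0.03). Values were tested with limma 3.58.1 in R 4.3.3 on log2(FPKM + 1) with a mean-variance trend, in 1 fit of 18 libraries with a mean per group (12 residual degrees of freedom), after a filter of at least 1 FPKM in at least 3 libraries. The pseudocount understates changes of low genes. Ratios used a two-sided exact permutation test. The fit was tested on simulated data.

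Named genes were the members, up to 4 called genes per list and comparison by adjusted p (or the 2 highest where none was called) and the 5 most alike; others are named as such, and some genes under this rule are not reported here. The members and lists were chosen with earlier results of these data known. Deviations of libraries with the same replicate number were correlated between each group and wild type. The values were 0.325, 0.236 and 0.16 for HDAC2 and 0.297, 0.464 and 0.0667 for HDAC1. For Dyrk1, Mef2c and Mef2d they lay between -0.358 and 0.162. Whether replicate numbers mark pairs was not tested. Alternatives were the pseudocount, filter, scaling, length and GC trends, replicate block, summed near-identical copies, libraries rich in B cell markers left out, each replicate left out, and each comparison's 6 libraries alone. A left-out replicate of a group outside the comparison alters the shared spread and not the difference itself. For HDAC1 and HDAC2 the same holds when the libraries rich in B cell markers are left out. Summed copies altered only H2-Q7 and H2-T22 among the members. The replicate block, the fit without the filter and the fit of a comparison's 6 libraries also leave the difference itself unchanged. Such alternatives are a weaker check of a call.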

Additional observations from a re-analysis of the deposited data

How the results depend on the processing

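Of 1300 member values recomputed under alternatives, 1253 kept their side of the threshold, 28 lost the call, 19 gained one and 0 called values changed sign; 33 values that were not called changed sign. These counts include alternatives that alter only the shared spread of a comparison and not its difference. The calls of H2-Q7 and H2-T22 for Mef2c, of H2-T22 and H2-T23 for Mef2d and of Nlrc5 for HDAC2 held in all 26 alternatives. The number of members called for Dyrk1 was 0 in the fit of its 6 libraries alone, where 62 genes were called in place of 2116, and 2 when the 3 libraries with the most B cell marker RNA were left out. It was 0 for HDAC1 and 4 for HDAC2 once length and GC trends were removed, where 1266 and 2923 genes were called in place of 1533 and 3123. It was 2 for Mef2d and 3 in the F test when those 3 libraries were left out. Leaving out each replicate in turn gave 1 to 2 members for Dyrk1, 0 to 1 for HDAC1, 1 to 4 for HDAC2, 2 to 4 for Mef2c, 2 to 5 for Mef2d, 5 to 7 in the F test and 12 to 18 of 100 between deletions. The count over all genes ranged more widely: 1186 to 2595 for Dyrk1, 421 to 2108 for HDAC1, 1329 to 3839 for HDAC2, 1150 to 2949 for Mef2c and 1079 to 3318 for Mef2d, the lowest for HDAC1, HDAC2, Mef2c and Mef2d when wild type replicate 3 was left out. When the libraries with the most B cell marker RNA were, it was 1307 for Mef2c and 1467 for Mef2d, against 2322 and 2677 in the fit reported. The cause was not tested. With the replicate block the members called were 1, 1, 2, 4 and 4 for Dyrk1, HDAC1, HDAC2, Mef2c and Mef2d. Psmb8 for Mef2c was the added call (log2 difference 0.24, adjusted p = 0.0338), and the block changed no other member call against wild type. Shares of all genes are not given for the block, or for the F test and the pairs of deletions with replicates left out. Those member counts are therefore no result about the members. With 3 libraries a group, a difference near the threshold can be lost with 1 library, as the Tap1 and Nlrc5 calls above were.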
